A study of Homo sapiens with 2 samples.

Results

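The 7 keratin genes KRT7, KRT8, KRT18, KRT19, KRT20, KRT23 and KRT80 were examined in maps of IGF2BP3 binding to RNA. They were taken by name, and a peak was counted for a gene when it overlapped the gene's span in GENCODE 44 on hg38. The peaks came to 12 of 21142 in replicate 1 and 14 of 20799 in replicate 2. KRT8 had 4 and 5 peaks, KRT19 had 3 and 3, KRT80 had 2 and 2, KRT23 had 2 and 3, and KRT18 had 1 and 2. No peak was called in KRT7 or KRT20 in either list. A single peak of replicate 2 lay in the spans of both KRT8 and KRT18 and was counted once.

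IGF2BP3 binds RNA and is treated by the study as an m6A reader, a protein that recognises N6-methyladenosine. The cells were OE-19, an established line of adenocarcinoma at the esophagogastric junction. LACE-seq joins RNA to its bound protein with UV light, recovers the protein with an antibody and reads cDNA ends after a linear amplification. There was 1 group with 2 replicates, for which the labels give no treatment, and neither input nor IgG was analysed here, so no comparison between conditions could be made and RNA abundance was not accounted for. A peak shows that reads piled up above the local background and does not measure the level of a gene, and the lack of a called peak does not show that IGF2BP3 was not bound.

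Keratins form the intermediate filaments of epithelial cells. Filaments assemble from pairs of a type I and a type II keratin: KRT18, KRT19, KRT20 and KRT23 are of type I, and KRT7, KRT8 and KRT80 are of type II. KRT8 and KRT18 are the main pair of simple, single-layered epithelia such as that of glands, and KRT19 can also pair with KRT8. Many copies of the KRT8 and KRT18 mRNAs were written back into the genome during evolution as processed pseudogenes, which lack introns, so that reads from these mRNAs may also match other places.

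In 5 genes a peak covered the start codon of the canonical transcript, in both lists for KRT8, KRT19, KRT80 and KRT23 and in replicate 2 for KRT18. The 5′ UTRs of KRT8, KRT18, KRT19 and KRT80 are 56 to 112 nt long, and no peak was narrower than 293 bp. A peak at exon 1 can therefore cover the start codon with its summit elsewhere. The summits lay at bases 32 and 24 of the KRT19 mRNA and at bases 51 and 27 of the KRT80 mRNA. The first 45 coding bases of KRT18 and KRT23 are shown because the start of the coding sequence is the place that most of the members shared. They are on hg38 and read on the gene strand, with the start codon in capitals. KRT18 lies at chr12:52949174-52949218 (plus) and KRT23 at chr17:40936559-40936603 (minus).
KRT18: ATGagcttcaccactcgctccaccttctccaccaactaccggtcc
KRT23: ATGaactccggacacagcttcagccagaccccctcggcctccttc

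The peak lists differed little in size. The median peak was 336 bp wide in replicate 1 and 342 bp in replicate 2. The fold enrichment is the deposited ratio of the reads over the summit to the local background with 1 read added to both, which lowers it most where the background is low. Its median was 6.89 and 7.13. The median number of reads over the summit was 22 in both lists. Each read number is given with an exact Poisson 95% interval, which covers counting error only.

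KRT8, the type II partner of the main pair, carried the largest numbers of reads among the members. Its canonical mRNA of 1784 nt has 8 exons, and the gene spans chr12:52897187-52949954 because of long upstream transcripts. A peak over exon 1 and the start codon (chr12:52904705-52905265) had a fold of 9.81 with 106 reads (95% interval 86.8 to 128) in replicate 1 and 13.4 with 156 reads (132 to 182) in replicate 2. The summits lay 2 bp apart, at base 91 and base 89 of the mRNA, just upstream of the start codon. The peak over the last exon and the stop codon (chr12:52897324-52897763) had a fold of 8.03 with 119 reads (98.6 to 142) and then 11.2 with 180 reads (155 to 208). At both ends of the mRNA replicate 2 was higher, and the intervals of its reads did not overlap those of replicate 1.

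The KRT8 peaks at the inner coding exons 5 and 6 were lower in fold and closer between replicates. The peak of exon 5 (chr12:52899847-52900242) had folds of 5.18 and 5.15 with 102 and 114 reads, and that of exon 6 (chr12:52898825-52899122) had folds of 4.23 and 4.33 with 65 and 70 reads. The read intervals of the replicates overlapped at both exons. These folds stood at the 18th and 14.8th percentile of their lists for exon 5 and at the 7.79th and 7.06th for exon 6. Their reads, by contrast, stood between the 92.7th and 98.5th percentile of all peaks. The summit of exon 5 lay in the adjoining intron in both lists, where 219 and 208 bases of the peak were exonic, and that of exon 6 did so in replicate 1. The exon 6 peak was mostly intronic, with 75 of 298 bp exonic in replicate 1 and 110 of 304 bp in replicate 2.

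KRT8 shared 4 peaks between the lists, and 4.21% of 20046 protein-coding genes shared at least as many. The genes with the same number of shared peaks and the nearest median fold to the 6.602 of KRT8, over 2 samples, were OSBPL3 (6.602), SLC35C1 (6.589) and EIF4G1 (6.643).

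KRT18, the type I partner, had far fewer reads. Its peak over exons 4 and 5 (chr12:52951448-52951773) had a fold of 6.78 with 32 reads (21.9 to 45.2) in replicate 1 and 8.18 with 49 reads (36.3 to 64.8) in replicate 2. A peak over exon 1 and the start codon (chr12:52948902-52949491) was called only in replicate 2, at a fold of 6.02 with 36 reads (25.2 to 49.8). This is the peak that also overlaps the span of KRT8, where the canonical KRT8 transcript has no exon. Its summit lies in a non-coding exon of another KRT8 transcript on the opposite strand, and since peaks carry no strand the genes could not be told apart there. It was described with KRT18, in which 374 of its bases were exonic, and the cover of the KRT18 start codon rests on it alone. Of the 2 partners, KRT8 had 65 to 119 reads per shared peak in replicate 1 and KRT18 had 32, and in replicate 2 KRT8 had 70 to 180 and KRT18 had 49.

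KRT19, a type I keratin without a tail domain, was covered over most of its coding sequence. The peak at the start codon (chr17:41527913-41528527) had a fold of 6.16 with 82 reads (65.2 to 102) and then 7.56 with 138 reads (116 to 163), and those intervals did not overlap. The peak over exons 2 and 3 (chr17:41524894-41525323) had folds of 4.23 and 3.39 with 58 and 63 reads. The peak over exons 4 to 6 (chr17:41523772-41524696) had folds of 5.13 and 5.26 with 71 and 99 reads, and it reached the stop codon in replicate 2 but not in replicate 1. All 3 peaks were found in both lists. The fold of 3.39 was at the 2.06th percentile of its list although its reads were at the 91.3rd.

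KRT80, a type II keratin, had a peak over exon 1 and another in the last exon. The peak of exon 1 with the start codon (chr12:52191675-52192195) rested on 17 reads (9.90 to 27.2) at a fold of 7.22 in replicate 1 and on 45 reads (32.8 to 60.2) at 13.6 in replicate 2, the highest deposited fold among the members. The peak of the last exon covered the stop codon and much of the 3′ UTR (chr12:52169598-52171451), with folds of 5.86 and 6.55 and 80 and 132 reads. It ended at bases 3271 and 2901 of the mRNA of 3873 nt, short of the 3′ end. It was the widest of the members, at 1854 and 1580 bp, and its summits lay 880 bp apart. The replicates therefore shared the region but not the position of the highest signal.

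KRT23, a type I keratin, had the fewest reads. The peak of exon 2 over the start codon (chr17:40936342-40936729) had a fold of 9.73 on 13 reads (6.92 to 22.2) in replicate 1 and 12.7 on 21 reads (13.0 to 32.1) in replicate 2. The other KRT23 peaks were each in 1 list only. The peak over the stop codon was called in replicate 1 at a fold of 8.13 with 15 reads, and those of exons 5 and 6 and of exon 7 were called in replicate 2 at folds of 7.0 and 7.61 with 13 and 16 reads. These numbers are low enough that a peak in 1 list only is not shown to be a difference between the replicates.

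**Figure D1:**
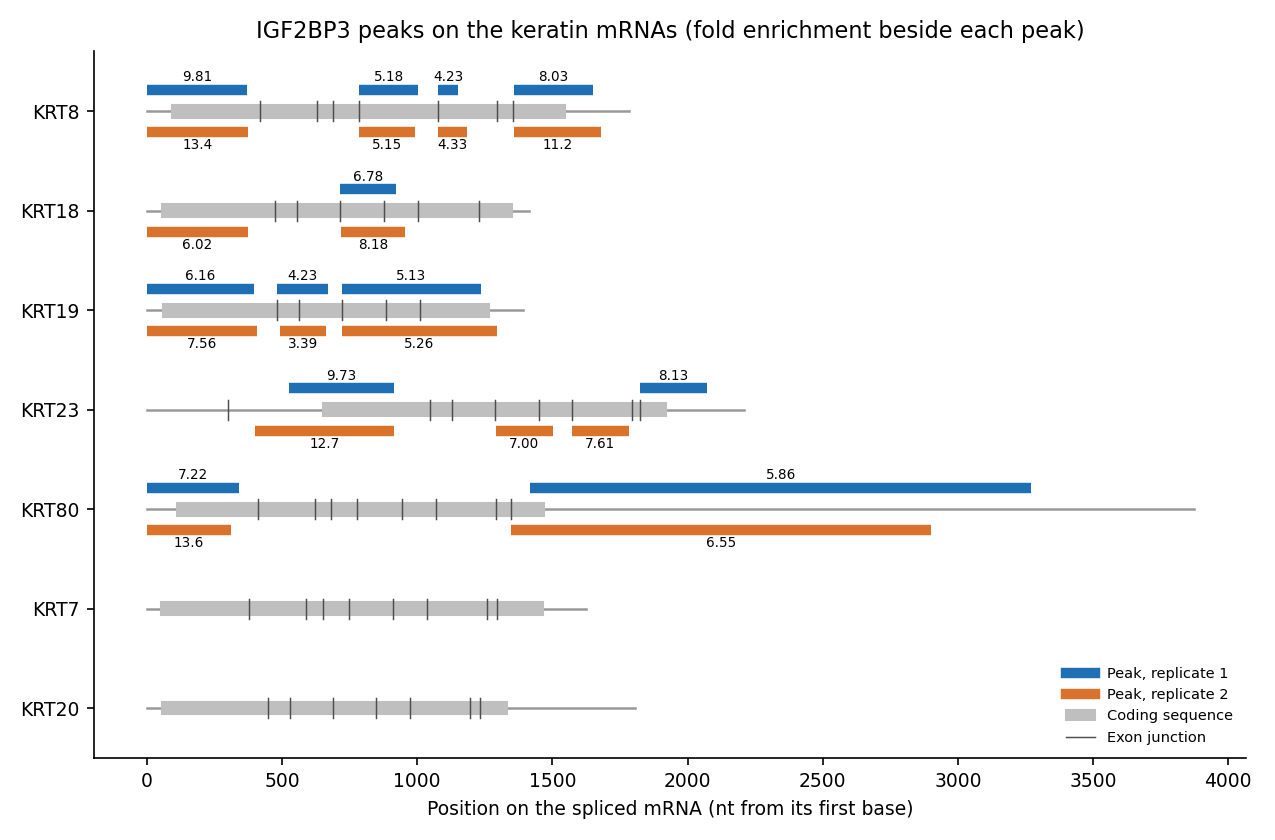
Peaks of replicate 1 (blue, above) and replicate 2 (orange, below) on the spliced canonical mRNA of each keratin, in nt from its first base, with the coding sequence in grey, exon junctions as ticks and the fold enrichment beside each peak. Only exonic bases are drawn, so parts of peaks in introns or outside the mRNA do not appear. KRT8, KRT19, KRT80 and KRT23 have a peak over the start codon in both replicates, and KRT7 and KRT20 have none.

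KRT7 and KRT20, markers used to tell apart the origins of glandular tumors, carried no peak in the deposited lists, which began at a −log10 q of 2.18 and 2.15. Over all genes, 34.7% of 20046 protein-coding genes had a peak in both lists, beside 5 of the 7 keratins. The span of KRT7 overlaps KRT7-AS, KRT86 and KRT87P, and none of these gave it a peak. The peaks carry no strand. The spans of KRT80 and KRT23 overlap LINC00592 and ENSG00000234477, which the annotation places on the opposite strand, and reads from either strand could not be told apart there.

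The members' peaks recurred often between the replicates. Of the 12 peaks of replicate 1, 11 overlapped a peak of replicate 2 (91.7%, Wilson 95% interval 64.6 to 98.5), beside 60.1% of all peaks of that list. Of the 14 peaks of replicate 2, 11 did so (78.6%, 52.4 to 92.4), beside 61.2% of all. The summits of 6 of the 11 pairs lay within 50 bp of each other, beside 56.9% of 12346 pairs over the whole lists. Those are the pairs in which a peak of replicate 1 overlapped exactly 1 peak of replicate 2, called all pairs below. The interval of the overlap share lay above the share of all peaks in replicate 1 and held it in replicate 2. Peaks of the same gene are not independent, which these intervals and those of later shares do not account for. The members' peaks also stood high in reads, and the shares over all peaks were not matched for reads. The share of close summits was near that of all pairs.

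Reads over the summit were higher in replicate 2 in 11 of the 11 pairs, by 1.08 to 2.65 times with a median of 1.51. Over all pairs this was so for 47.4%. The local background was also higher in replicate 2 in 11 of the 11 pairs, beside 42.4% of all pairs. The fold was higher in replicate 2 in 9 of the 11 pairs, beside 58.7% of all pairs. The 2 exceptions were exon 5 of KRT8, with 5.18 and 5.15, and exons 2 and 3 of KRT19. The pairs come from 5 genes and are not independent, and no library totals were in the files to scale the reads by. The cause of the higher reads was not tested.

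**Figure D2:**
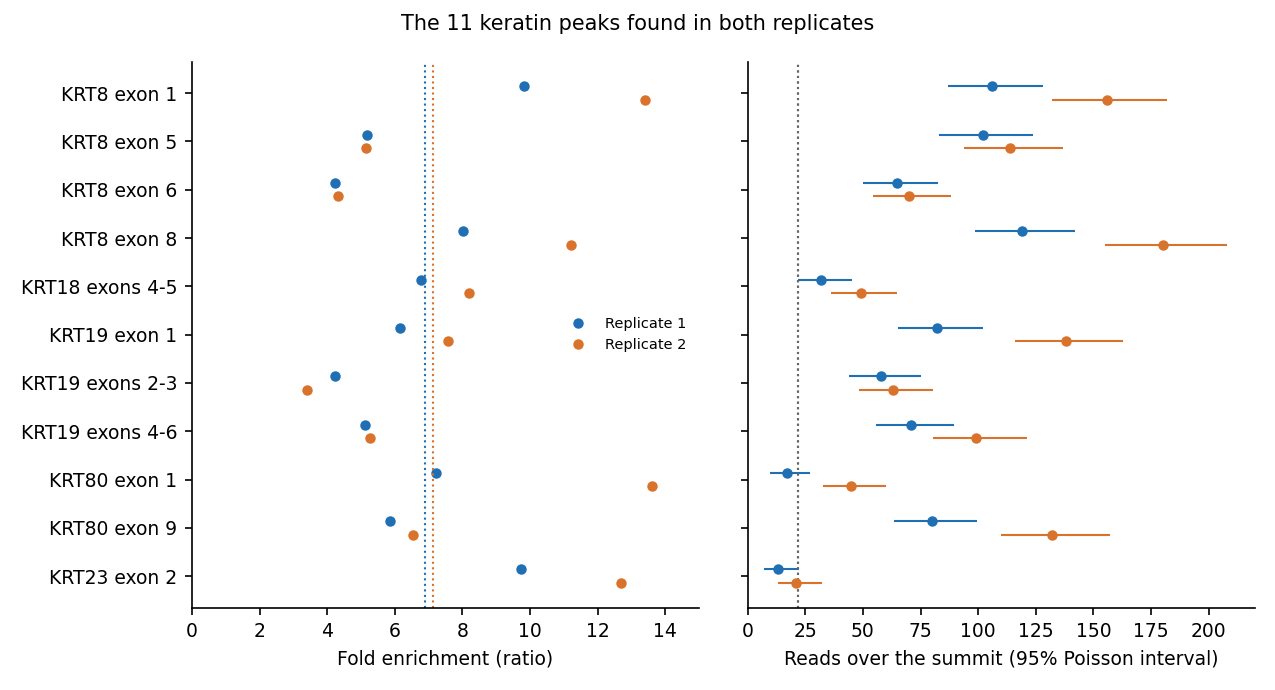
Fold enrichment (left) and reads over the summit with exact Poisson 95% intervals (right) of the 11 peaks found in both replicates, replicate 1 in blue and replicate 2 in orange, with dotted lines at the median of all peaks. Reads were higher in replicate 2 in all 11 pairs, and the largest numbers were at the last exon of KRT8, with 119 and 180 reads.

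The members stood high in reads and near the middle of their lists in fold. Their median number of reads was 68.0 in replicate 1 and 66.5 in replicate 2, at the 93.4th and 92.4th percentile of all peaks. Their median fold was 6.47 and 7.28, at the 41.7th and 52.7th percentile. The local background was also high, with a median of 12.7 and 12.9 reads beside 2.05 and 1.79 over all peaks. KRT8, KRT19 and the last exon of KRT80 made up this pattern, with backgrounds of 9.90 to 21.3 reads. KRT23 was the reverse, with backgrounds of 0.439 to 1.23 reads and few reads at its summits, and the added read lowers its folds most.

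**Figure D3:**
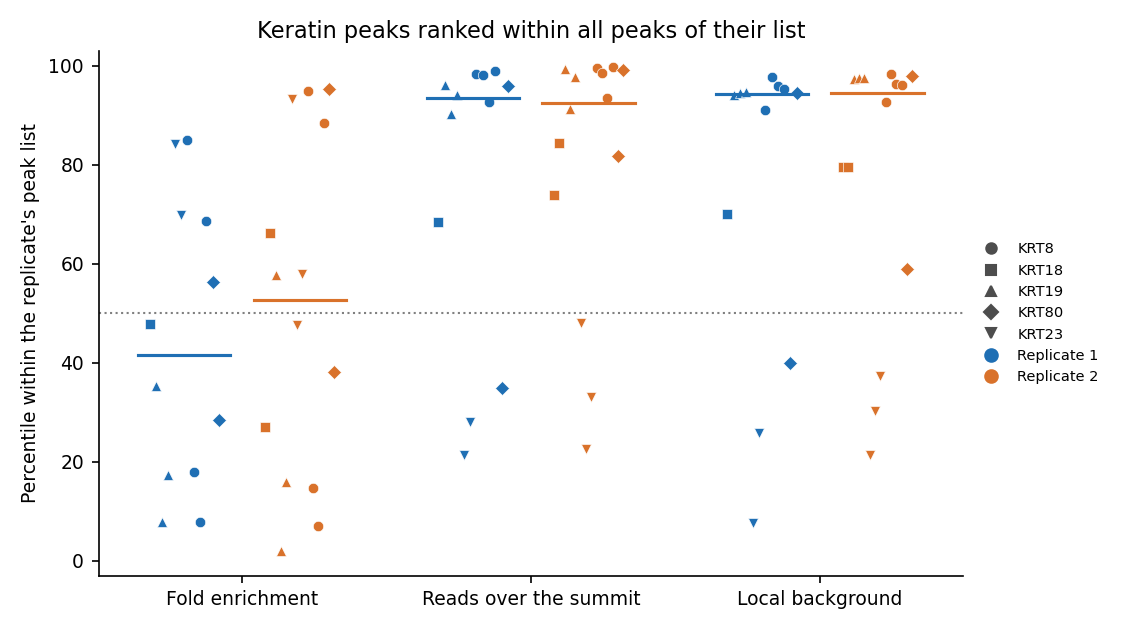
Percentile of each keratin peak within its own peak list for fold enrichment, reads over the summit and local background, with 1 symbol per peak by gene, blue for replicate 1, orange for replicate 2 and a line at the median. The medians lie near the middle for fold (41.7 and 52.7) and far higher for reads (93.4 and 92.4), while the KRT23 peaks lie below 50 for reads and for background.

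By the class of the summit over all transcripts, 5 of 12 peaks in replicate 1 lay in coding sequence (41.7%, 19.3 to 68.0) and 8 of 14 in replicate 2 (57.1%, 32.6 to 78.6). The share over all peaks was 29.2% and 30%. The intervals hold 29.2% in replicate 1, and the lower bound in replicate 2 was just above 30%. Among peaks whose summit 31-mer occurs once in the genome the share was 22.2% in replicate 1, below that of all peaks, and 40% in replicate 2. The KRT8 exon 1 summit counts as coding here because another transcript starts its protein further upstream, and it lies in the 5′ UTR of the canonical transcript. The start codon was covered by 4 of 12 peaks and 5 of 14, beside 8.35% and 12.9% of all peaks in coding genes. The length of the 5′ UTR was not accounted for in this comparison. The stop codon was covered by 3 of 12 and 3 of 14, beside 14.4% and 13.3%. Both codons were covered in both lists in KRT8 and KRT80, 2 of the 4 members with at least 2 peaks in each list, beside 11.2% of 3660 such coding genes.

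Motifs that have been linked to IGF2BP proteins or to m6A were counted on the gene strand, over the summit and 50 nt on either side. They were GGAC and its longer form TGGAC, which counts as both, then ACACA, and CATC along with CATA as well as CATT. GGAC was in 4 of 12 windows of replicate 1 and 4 of 14 of replicate 2, beside 29.1% and 32.0% of all windows in genes. TGGAC was in 0 of 12 and 2 of 14, beside 10.1% and 10.2%. ACACA was in 3 windows in each list (25% and 21.4%), beside 11% and 8.71%. CATC was in 5 and 5, beside 34.0% and 31%, CATA in 2 and 1, beside 18.7% and 14%, and CATT in 0 and 2, beside 33.0% and 26%. The shares of the members rest on 12 and 14 windows and give wide intervals, which for GGAC ran from 13.8 to 60.9 and from 11.7 to 54.6 percent.

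Some summits of coding sequence are shown to give these counts a form. The runs reach up to 30 nt to each side of the summit within the exon's coding part, on hg38 and the gene strand, with each of the 6 motifs in capitals. They come from the KRT18 peak of exons 4 and 5 of replicate 1 (chr12:52951539-52951599, plus), KRT19 exon 6 of replicate 1 (chr17:41523957-41523997, minus), KRT23 exon 2 of replicate 2 (chr17:40936562-40936603, minus), the KRT23 peak of exons 5 and 6 of replicate 2 (chr17:40928446-40928497, minus) and the last exon of KRT8 of replicate 2 (chr12:52897508-52897568, minus).
KRT18: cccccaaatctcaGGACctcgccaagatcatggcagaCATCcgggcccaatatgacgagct
KRT19: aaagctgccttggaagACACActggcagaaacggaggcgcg
KRT23, exon 2: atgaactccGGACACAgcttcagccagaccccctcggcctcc
KRT23, exons 5 and 6: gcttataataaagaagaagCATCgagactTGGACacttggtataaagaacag
KRT8: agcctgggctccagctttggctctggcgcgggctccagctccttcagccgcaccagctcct
In KRT23 exon 2 a GGAC and an ACACA overlap a few bases after the start codon. The KRT8 peak with the most reads, 180 in replicate 2, holds none of the 6 motifs in the run shown.

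The sequence under the KRT8 and KRT18 peaks was shared with other places in the genome. Of the 31-mers of each KRT8 peak, 58.2% to 67.4% were found once in the genome in replicate 1 and 56.9% to 68.1% in replicate 2. In KRT18 this was 62.8% in replicate 1 and 62.1% and 63.9% in replicate 2. In KRT19 it was 91.0% to 97.0%, and in KRT80 and KRT23 it was 100%. Among the members' peaks, 9 of 12 and 10 of 14 had a summit 31-mer that occurred once, and the exceptions were all in KRT8 and KRT18. The second copy of the KRT8 exon 1 summit lay at the pseudogene KRT8P49, where a peak of each list overlapped it. Of the 31-mers of those KRT8P49 peaks, 92.5% and 99.3% occurred once. In replicate 2 only 48 of the 297 bp of the peak aligned to KRT8. Copies of the exon 8 summits lay in KRT8P45 and KRT8P20 and those of the KRT18 summits in KRT18P11 and KRT18P10, and no peak lay over these. A copy of the exon 6 summit of replicate 2 lay in KRT8P45 under a peak of that list, and another in KRT8P3 under none. These loci are named because they hold the copies, after the values were seen.

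**Figure D4:**
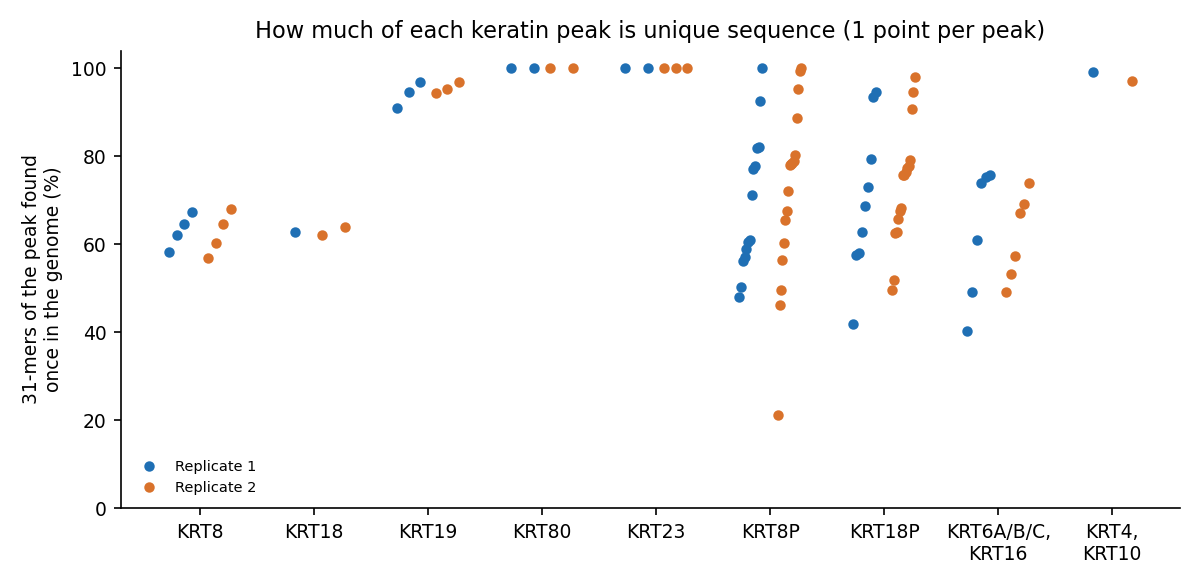
Share of the 31-mers of each peak that occur once in the genome, in percent, 1 point per peak, for the keratin genes with peaks, the KRT8 and KRT18 pseudogenes (KRT8P, KRT18P) and other keratins, replicate 1 in blue and replicate 2 in orange. KRT80 and KRT23 are at 100%, whereas KRT8 and KRT18 lie between 56.9% and 68.1%.

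The pseudogenes themselves carried peaks. The annotation lists 51 KRT8 and 68 KRT18 pseudogenes, whose identity to the parent mRNA ran from 81.7% to 97.3% with a median of 91.5%. KRT18P53 is counted on both X and Y, where its coordinates are the same, and KRT18P40 is unprocessed. Neither had a peak. Of these 119, 22 had a peak in replicate 1, 30 in replicate 2 and 20 in both (16.8%), beside 7.17% of 10658 processed pseudogenes. By parent, 11 of 51 KRT8 pseudogenes and 9 of 68 KRT18 pseudogenes had a peak in both lists. The median identity was 92.2% for the 20 and 90.8% for those with no peak. In 17 of the 20 the peaks of the lists overlapped.

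Pseudogene peaks had fewer reads than those of KRT8. The median was 12 reads in replicate 1 and 13 in replicate 2, and the highest were 35 and 58, in KRT8P33. The folds, with medians of 7.5 and 7.92, stood beside medians of 6.47 and 7.28 in the keratin genes. Ranked by the lower of the percentiles of fold in the lists, the leading pseudogenes were KRT8P31 (chr5:60743759-60744088) with folds of 9.98 and 11.6 on 16 and 25 reads, KRT18P39 (chr2:203764748-203765043) with 8.96 and 11.1 on 14 and 19 reads, KRT8P33 (chr5:123400874-123401385) with 8.58 and 13.5, and KRT8P48 (chr5:146706891-146707202) with 8.39 and 12.7 on 16 and 34 reads. KRT18P48, KRT8P35, KRT18P17, KRT18P41 and KRT18P5 followed, with folds of 7.36 to 8.84 on 11 to 20 reads. The peak at KRT8P12, with folds of 7.93 and 10.7, covered no base that aligned to KRT8, was unique in all its 31-mers and lay in the gene KPNA4. Several other pseudogenes lie inside host genes, such as KRT8P33 in CEP120 and KRT8P48 in PPP2R2B.

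Placed on the parent mRNA, 40 of the 54 pseudogene peaks with aligned bases covered a junction between parent exons, although a window of 300 nt covers one in 83.2% of positions on the KRT8 mRNA and 84.4% on that of KRT18. On KRT8 up to 5 pseudogene peaks of replicate 1 lay over the same base, between 151 and 394 nt of the mRNA, which the gene's own exon 1 peak covers in large part. In replicate 2 up to 7 did so between 1074 and 1312 nt, a stretch that holds the gene's own exon 6 peak and then the junction of exons 6 and 7, where the gene had none. The summits of 6 of 13 and 8 of 16 KRT8 pseudogene peaks lay under a peak of KRT8, whose peaks cover 53.9% and 56.8% of the mRNA. Those of 0 of 9 and 11 of 16 KRT18 pseudogene peaks lay under a peak of KRT18, whose peaks cover 14.7% and 43.2%. Pairs of sequence at junctions of KRT18 are shown to set a spliced parent beside its uninterrupted copy. They match more closely than the rest of the copies, whose identity within their peaks was 93.9% and 93.5% for KRT18P39 and 95.2% and 95.4% for KRT18P17. In each pair the parent mRNA is joined from 30 nt of each exon, with the last base before and the first base after the junction in capitals, and the pseudogene has its differing bases in capitals. KRT18P39 (chr2:203764900-203764959, minus) is set against KRT18 exons 3 and 4 (chr12:52950877-52950906 and chr12:52951481-52951510), and KRT18P17 (chr3:12788143-12788202, minus) against exons 2 and 3 (chr12:52950381-52950410 and chr12:52950750-52950779).
KRT18 exons 3 and 4: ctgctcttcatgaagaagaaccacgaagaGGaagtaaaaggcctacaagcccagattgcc
KRT18P39: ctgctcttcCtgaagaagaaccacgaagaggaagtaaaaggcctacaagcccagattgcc
KRT18 exons 2 and 3: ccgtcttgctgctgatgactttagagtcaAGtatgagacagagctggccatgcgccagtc
KRT18P17: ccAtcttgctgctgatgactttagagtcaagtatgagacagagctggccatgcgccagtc
Both pseudogenes matched the parent at 59 of the 60 bases, and neither had an intron of the parent between them. A read of a spliced parent mRNA across such a junction would match the pseudogene without a gap. Whether the reads of these peaks came from the parent mRNAs, the pseudogenes or their host genes was not tested.

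**Figure D5:**
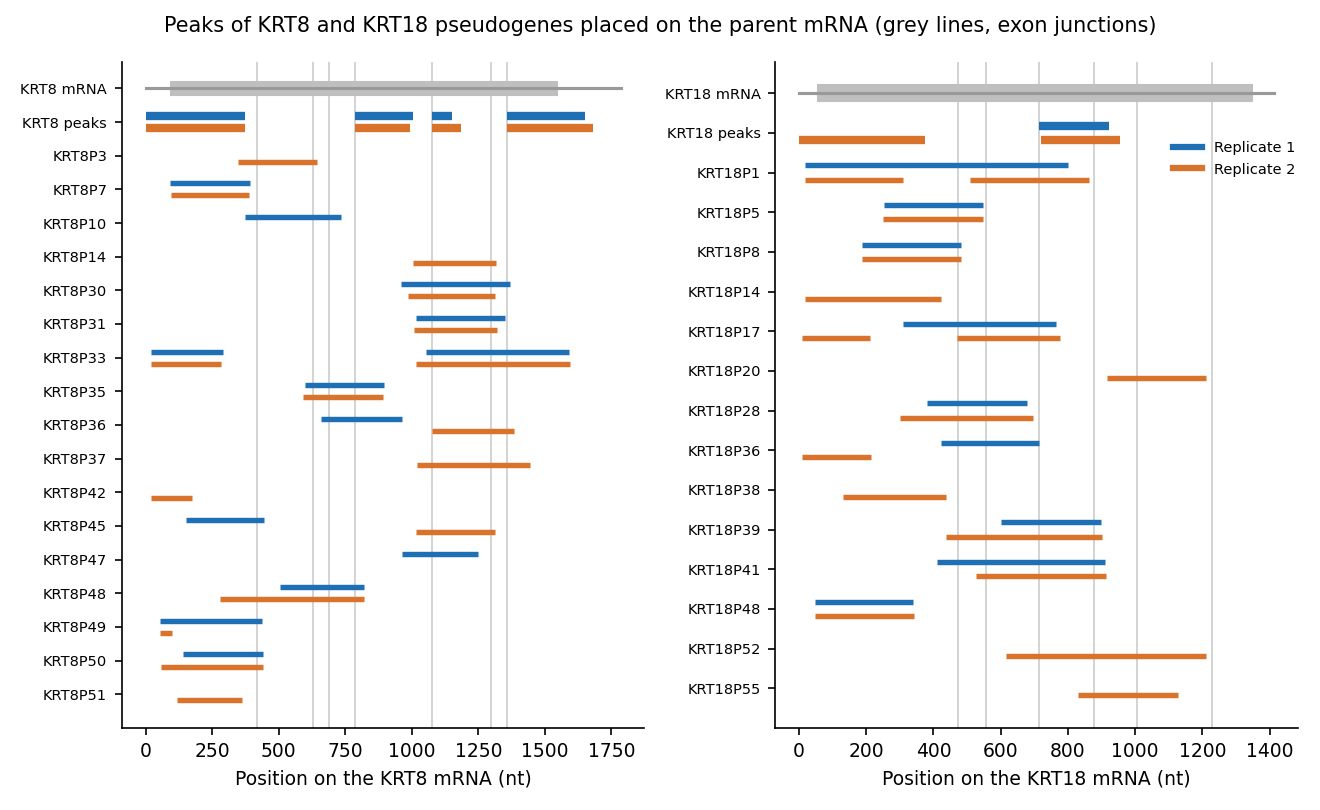
Peaks of the KRT8 (left) and KRT18 (right) pseudogenes placed on the parent mRNA, in nt from its first base, with the parent's own peaks above, coding sequence in grey and exon junctions as grey lines, replicate 1 in blue and replicate 2 in orange. Of the 54 pseudogene peaks drawn, 40 cross a junction, and the exonic bases of the KRT8 peaks lie in exons 1, 5, 6 and 8.

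Peaks in the rest of the keratin family were few. Of the 48 other keratin genes, 3 had a peak in both lists and 6 in either, beside 5 and 5 of the 7 members. All 6 belong to the 21 keratins of stratified epithelia, and none of the 26 hair and follicle keratins had a peak. KRT6A had folds of 7.90 and 12.6, KRT6B 6.86 and 7.62, and KRT16 7.31 and 6.89 at their largest peaks, which in KRT16 were different peaks in the lists. KRT4 and KRT6C had a peak in replicate 1 only, with 9 and 12 reads, and KRT10 in replicate 2 only, with 18 reads. In KRT6A, KRT6B, KRT6C and KRT16 only 40.3% to 75.7% of the 31-mers of a peak occurred once, so reads of these close paralogs may be split between them.

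The partners of keratin filaments had peaks of very different strength. All 7 plakins, large proteins that tie filaments to cell junctions and to other parts of the cytoskeleton, had a peak in both lists, beside 34.7% of protein-coding genes. The largest folds were 13.6 and 12.6 in DST, 8.30 and 18.5 in DSP (desmoplakin) and 7.74 and 9.27 in MACF1, and in each of these genes they came from different peaks in the lists. No peak of MACF1 overlapped one of the other list. PLEC (plectin) was at the low end, with largest folds of 5.92 and 2.88. All 6 listed regulators of keratin filaments had a peak in both lists too, from YWHAE, a 14-3-3 protein, at 15.1 and 18 and the kinase CSNK1A1 at 12 and 12.8 to FAM83H at 3.06 and 3.05. Of 15 other intermediate filament genes, 3 had a peak in both lists and no other had one, the lamins LMNA, LMNB1 and LMNB2. Long genes offer more room for peaks, and gene length was not accounted for.

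Markers of glandular epithelium, the cell type that the label adenocarcinoma implies, had a peak in 10 of 11 genes in both lists, beside 34.7% of protein-coding genes. EPCAM had a shared peak in its 5′ UTR at folds of 9.04 and 18.5, and CDH1 one in an intron at 10.7 and 10.5. Of 6 squamous markers 1 did, KRT6A. None of 6 fibroblast and 3 endothelial markers did, with 1 fibroblast gene in replicate 2 alone, and of 5 immune markers LYZ and CD68 did.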

How the data were processed

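IGF2BP3 LACE-seq peak lists of 2 replicates of OE-19 cells were used. The study calls them biological replicates, and the labels do not say whether they came from separate cultures. The methods name Bowtie for alignment to hg38 after removal of pre-rRNA reads and Piranha for peaks, whereas the labels name fastp, HISAT2 and MACS2, and the deposited layout of 10 columns is that of MACS2. HISAT2 aligns across splice junctions and Bowtie does not, which bears on peaks near junctions and on pseudogenes. Peaks were called by the authors per replicate, with no control and no strand.

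The authors deposited a fold enrichment, a ratio of summit reads to local background with 1 added to both, and a p-value and a q-value on the −log10 scale. The deposited score column, made from the q-value, was not used. Starts, ends and summits are in bp, and coordinates are given 1-based.

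Library totals are unknown. Reads over a summit were recovered as the whole number that gives both the deposited fold and p-value under a Poisson test, which was found for all 21142 and 20799 peaks (within 0.001 on the −log10 scale). The recovery was right for 1000 of 1000 peaks simulated with the same formula, which checks the calculation only. It has exact Poisson 95% intervals, and shares have Wilson 95% intervals, all for counting error only.

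Genes and canonical transcripts were those of GENCODE 44, and overlap meant 1 shared bp. Summits were classed in the order coding sequence, 3′ UTR, 5′ UTR, non-coding exon and intron over all transcripts. Exact 31-mers were counted on both strands of the main chromosomes. Pseudogenes named KRT8P or KRT18P were aligned with 500 bp to each side to the parent mRNA by Biopython 1.88. Unnamed loci were sought with blastn 2.17.0, with at least 200 nt at 80% identity. No test was run over the members. Members and gene lists were chosen with earlier results of these data known. All 7 keratins, other keratins with a peak, up to 10 pseudogenes with a peak in both lists and up to 4 genes of each other list were named, the last by the lower within-list percentile of fold. PLEC and FAM83H were named outside this rule, as the lowest of their lists by that percentile. Alternatives changed the peaks used, their placing, the overlap rule, the position and window, the transcript, the measure of strength and the replicates. Some sequences are not reported here.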

Additional observations from a re-analysis of the deposited data

How the results depend on the processing

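Of 60 results under an alternative setting, 44 stayed within 1.5 times (counts) or 1 SD of the replicates (other values) and 16 did not. For shares, folds and reads, leaving out 1 replicate cannot exceed 1 SD of the replicate values, so staying within it there shows nothing. Rankings by percentile were judged instead by whether the median stayed on the same side of the middle of the list. Peaks with a −log10 q of 5 or more gave 19 in place of 20 pseudogenes with a peak in both lists, and placing peaks by the summit gave the same number, with no other change. Values for both replicates are given as their mean. With the 5000 peaks of largest −log10 q in each list, the peaks per replicate fell from 13 to 8, the genes with a peak in both lists from 5 to 3 (KRT8, KRT19 and KRT80), the pseudogenes from 20 to 1, other keratin genes from 3 to 0 and windows with GGAC from 31% to 18.3%, and the median reads were 99.2 in place of 67.2. Summits within 50 bp lowered the overlap from 85.1% to 46.4%. Only peaks whose summit 31-mer occurs once gave an overlap of 73.9%, 31.1% of summits in coding sequence in place of 49.4%, 60.5 reads and GGAC in 36.7%. The middle of the peak gave 65.5% in coding sequence and GGAC in 41.1%. That GGAC mean joins lists that shifted in opposite directions. Replicate 1 had 25% at the middle, below its 33.3% at the summit, whereas replicate 2 had 57.1%, above its 28.6%. Windows of 25 nt to each side of the summit gave GGAC in 23.2%. Ranked by −log10 q in place of fold, whose median was 6.88, the median percentile was 84.6. Without 1 replicate, genes and pseudogenes needed a peak only in the list left, a looser rule than a peak in both. The ranges were then 12 to 14 peaks, 5 genes, 41.7% to 57.1% in coding sequence and folds of 6.47 to 7.28. They were 66.5 to 68 reads, 22 to 30 pseudogenes, 28.6% to 33.3% with GGAC and 4 to 5 other keratins. The 5 other keratins without replicate 2 were outside 1.5 times. The overlap share, which needs both lists, was not run. The cause of these shifts was not tested. No paired analysis was possible because there was 1 group. The depth limits KRT23 most, with 13 to 21 reads per peak.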

Other observations

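The 5 annotated KRT19 pseudogenes were outside the lists above and were looked at after the values of the others were seen. KRT19P3 had a peak in both lists (chr4:109879616-109879910 in replicate 1), with folds of 8.34 and 14.3 on 11 and 23 reads. Its fold in replicate 2 was above the largest fold of KRT19 itself, 7.56, but that KRT19 peak had 138 reads over a local background of 17.4. Of the 31-mers of the KRT19P3 peaks, 97.0% and 96.8% occurred once in the genome. The other 4 had none.

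Of 13 further loci that aligned to the KRT8 or KRT18 mRNA and overlap no annotated keratin gene, 1 had a peak in both lists and 1 more in replicate 2 alone. The latter lies beside KRT8P51, and its peak (chr7:136938464-136938907) is the one already counted for that pseudogene.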
